A study of Homo sapiens with 6 samples.

Results

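MUC16, WFDC2, MSLN, PAX8, FOLR1, WT1, EPCAM, CLDN3, CLDN4 and MUC1 are 10 genes whose products are used in blood or on tissue sections to follow ovarian carcinoma or to name its lineage. Their probes were looked up on 6 single-color Agilent arrays of SKOV-3, an established human ovarian cancer cell line, whose name the labels spell in more than one way. The gene name column repeated the probe name for every spot, so a probe was assigned to a gene when its 60 bases matched a sense transcript of that gene without mismatch. By this rule 8 of the 10 genes had a probe, with 18 of the 125584 probes in all, and MSLN and WT1 are not analysed here. In the labels 3 arrays are of cells given 100 nmol/L 1α,25(OH)2D3, the active hormone of vitamin D, for 72 h and 3 are of cells given vehicle (ethanol) for 72 h. The labels do not say whether the 3 arrays of a group came from separate cultures, so p-values measure the spread between these arrays, which may be technical, and precision is limited by how few arrays there are.

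MUC16 (CA125) and MUC1 (CA15-3) are large membrane mucins whose extracellular parts carry sugar chains on serine and threonine and are shed into blood. WFDC2 encodes HE4, a secreted protein with whey acidic protein domains held together by disulfide bonds. FOLR1 is a folate receptor anchored in the membrane by a lipid, and PAX8 is a transcription factor of the Müllerian, renal and thyroid lineages. EPCAM is a homotypic adhesion molecule of epithelia, and CLDN3 and CLDN4 are claudins, which seal tight junctions.

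The probes of the mucins and the coding probes of WFDC2 are shown because they lie in the coding sequence. Serine and threonine codons are marked in the mucin probes that lie within a single exon, and cysteine codons in those of WFDC2. Coordinates are those of hg38, from an exact match to GENCODE release 44, and letters read 5′ to 3′ on the transcript. MUC16 is on the minus strand of chromosome 19 (chr19:8848844-9010390, 84 exons in its principal transcript). One probe lies in the coding sequence of exon 3 (chr19:8949776-8949835, 9 serine and threonine codons in capitals). The other spans chr19:8856125-8858247, with 44 bases in exon 80 and 16 in exon 81 (in capitals).
MUC16 A_33_P3313110: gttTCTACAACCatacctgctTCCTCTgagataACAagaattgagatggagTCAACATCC
MUC16 A_23_P5211: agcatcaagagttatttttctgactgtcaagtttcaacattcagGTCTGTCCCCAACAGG
MUC1 is on the minus strand of chromosome 1 (chr1:155185824-155192916, 8 exons). One probe lies in the coding sequence of exon 2 (chr1:155192184-155192243, 8 serine and threonine codons in capitals). The other spans chr1:155186176-155187250, with 26 bases in exon 7 and 34 in exon 8 (in capitals).
MUC1 A_33_P3332215: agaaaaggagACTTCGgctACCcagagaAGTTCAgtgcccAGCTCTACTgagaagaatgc
MUC1 A_23_P137856: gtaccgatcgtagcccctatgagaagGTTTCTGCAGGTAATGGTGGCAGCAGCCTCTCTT
WFDC2 is on the plus strand of chromosome 20 (chr20:45469753-45481532, 4 exons). Its coding probes lie in exon 2 (chr20:45470438-45470497) and exon 3 (chr20:45480029-45480088), with 5 and 4 cysteine codons in capitals.
WFDC2 A_24_P14464: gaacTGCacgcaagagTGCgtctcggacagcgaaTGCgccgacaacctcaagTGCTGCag
WFDC2 A_23_P218675: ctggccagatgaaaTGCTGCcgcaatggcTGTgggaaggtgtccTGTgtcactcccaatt

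The labels were first set beside CYP24A1, which encodes the enzyme that inactivates 1α,25(OH)2D3. All signals below are the authors' normalized values on the log2 scale, given in the order of replicates 1, 2 and 3 of a label, and signals of different probes are not compared. The CYP24A1 probe A_23_P28815, in the 3′ UTR, read 2.23, 13.84 and 3.30 on the 1α,25(OH)2D3-labelled arrays and 14.18, 4.75 and 14.34 on the vehicle-labelled arrays. It was well above background on 1α,25(OH)2D3 replicate 2 and vehicle replicates 1 and 3, and on no other array. Its mean was therefore lower with the 1α,25(OH)2D3 label, and the study describes this gene as raised by the hormone, which is the opposite direction. For this reason each array is called by its label, and each difference is a difference between labels (1α,25(OH)2D3 minus vehicle). The arrays lie on a pair of slides, with 1α,25(OH)2D3 replicates 1 and 2 on the first and 1α,25(OH)2D3 replicate 3 on the second together with the 3 vehicle arrays. A difference within the second slide, 1 array against 3, is given beside the pooled one, and its test assumes that the lone array varies like the vehicle arrays. The share of probes well above background ranged from 49.1% to 57.6% between arrays.

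All 8 measured markers had at least 1 probe well above background on all 6 arrays. Of the 18 probes, 14 were above background on all arrays, 2 on some arrays and 2 on none. The scanner flag does not by itself set these genes apart from those of other cell types. CD14, CD3E and PTPRC, of the leukocyte genes looked up, also had a probe above background on all 6 arrays, although for PTPRC this held for some of its probes and others were above background on none. The summed linear signal of the leukocyte genes was 811 to 990 on the 1α,25(OH)2D3-labelled arrays and 812 to 871 on the vehicle-labelled ones. The 4 mesothelial, 3 endothelial and 4 fibroblast genes looked up had a probe above background on all arrays for 3, 3 and 1 genes. Of their tested probes 0 passed the unadjusted threshold described below, beside 0.745% of all tested probes. The summed signal of the mesothelial genes was 1317 to 2012 on the 1α,25(OH)2D3-labelled arrays and 920 to 1506 on the vehicle-labelled ones. Most of this sum came from the probe of UPK3B, whose log2 difference between labels was 0.66. The tested probes of CALB2, LRRN4 and BNC1 had differences of -0.31, 0.17 and 0.26. The part of any such cells in the results was not tested. DCN and PDGFRA, of fibroblasts, were above background on no array. Among genes of other carcinomas, CDX2, NKX2-1 and SFTPB, of gut and lung, were above background on no array.

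**Figure D1:**
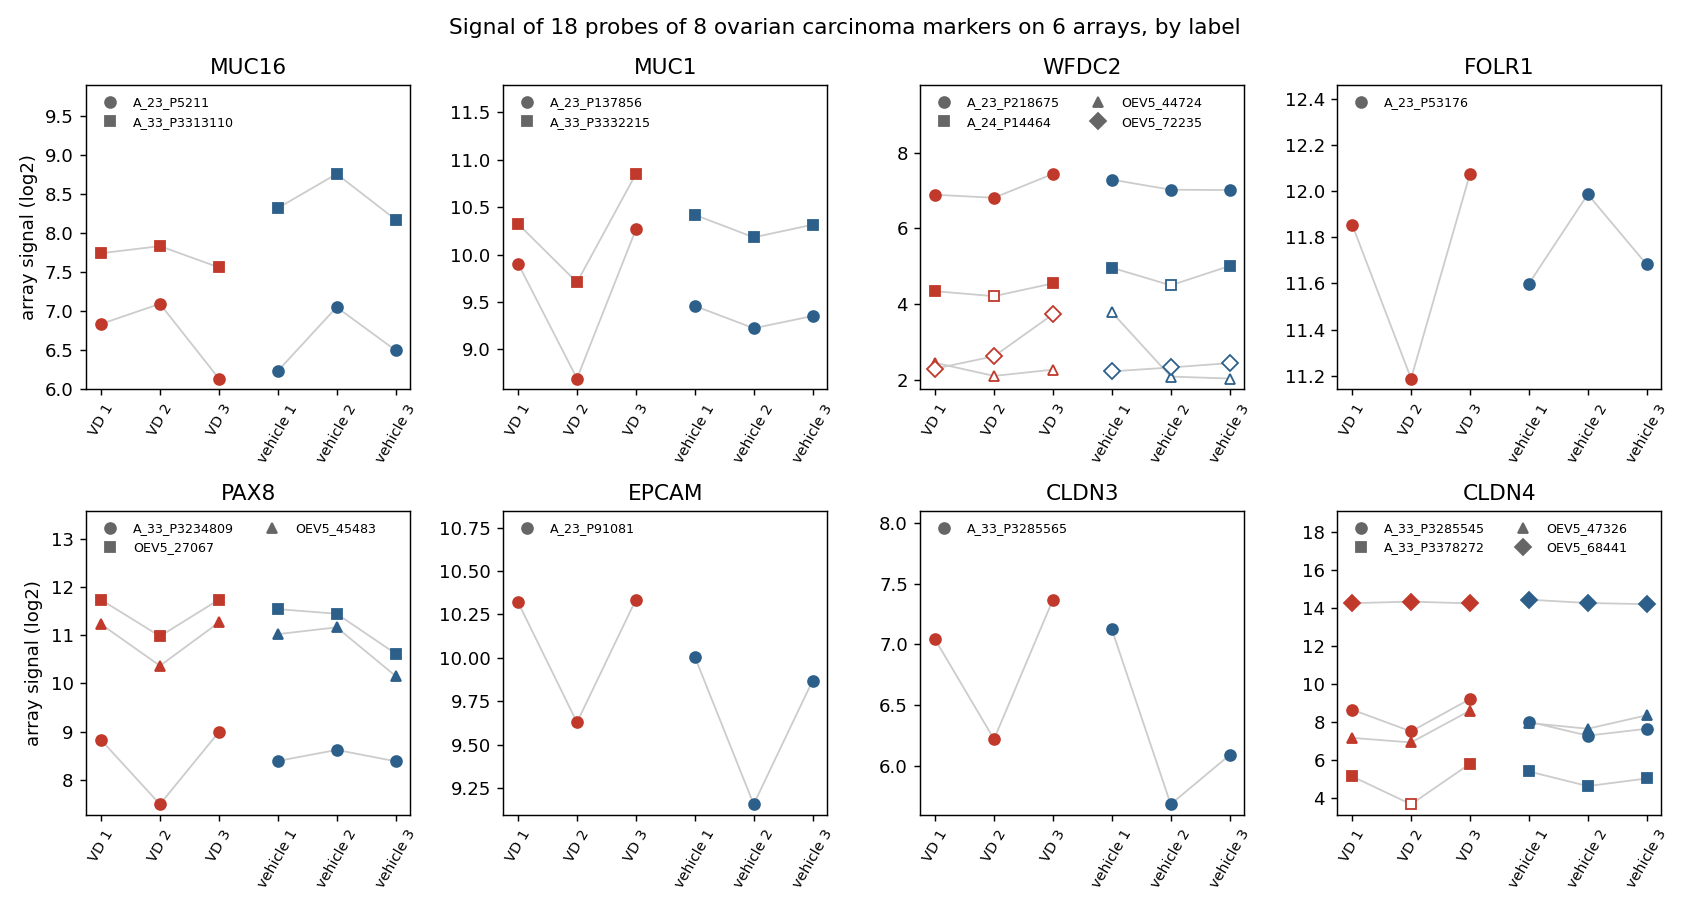
Log2 array signal (y axis, own range in each panel) of the 18 probes of 8 markers on the 6 arrays (x axis, VD for 1α,25(OH)2D3). Red stands for the 1α,25(OH)2D3 label and blue for the vehicle label, symbols stand for probes, open symbols are signals not well above background, and grey lines join the arrays of a label. The MUC16 probe A_33_P3313110 is the tested probe whose labelled groups do not overlap.

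A probe was tested when 1 or both labels had it well above background on each of their 3 arrays, which held for 63372 probes and for 15 of the 18 marker probes. In the limma fit over all tested probes, 0 of the 15 had an adjusted p under 0.05 (Benjamini-Hochberg), and 0 of all tested probes had one (0%). The study's results use an unadjusted threshold, a fold change above 2 with p under 0.05. In limma it was passed by 0 of 15 marker probes, beside 472 of all tested probes (0.745%). The study's methods name a stricter threshold, an absolute log2 fold change above 2 with a false discovery rate under 0.05. It was passed by 0 of all tested probes. The unadjusted p was under 0.05 for 1 of 15 marker probes, beside 6.77% of all tested probes (4289). The labelled groups did not overlap for 1 of 15, beside 12.2% of all, and it was lower with the 1α,25(OH)2D3 label, beside 5.18% of all. Mean signals were higher with the 1α,25(OH)2D3 label for 7 probes and lower for 8, beside 49.4% higher over all tested probes. The median difference was -0.01 over the 15 probes, with a range of -0.71 to 0.81, and -0.004 over all tested probes. The 95% interval of the difference lay between -1 and 1 for 7 probes and reached a 2-fold difference or more for the other 8.

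The 2 probes of MUC16 differed in their pattern. The probe in exon 3 read 7.74, 7.83 and 7.56 on the 1α,25(OH)2D3-labelled arrays and 8.32, 8.76 and 8.17 on the vehicle-labelled ones. Every vehicle array was higher than every 1α,25(OH)2D3 array. The means were 7.71 ± 0.14 and 8.42 ± 0.31 (SD, n = 3 each), a difference of -0.71 (standard error, SE, 0.20, 95% interval -1.16 to -0.25), or 0.612 of the vehicle level. Its unadjusted p in limma was 0.00753 and its adjusted p 0.701, where every adjusted p is by the Benjamini-Hochberg method over all tested probes. The difference was -0.86 within the second slide and ranged from -0.83 to -0.54 when each array was left out in turn. Nearer the 3′ end of the same gene, the probe across exons 80 and 81 read 6.83, 7.09 and 6.13 on the 1α,25(OH)2D3-labelled arrays and 6.23, 7.05 and 6.49 on the vehicle-labelled ones. These groups overlapped, with the highest and the lowest reading both under the 1α,25(OH)2D3 label. The difference was 0.10 (SE 0.31, limma adjusted p = 0.942), and -0.46 within the second slide. Whether the probes of MUC16 differ from each other was not tested.

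Both probes of MUC1 had their highest and lowest readings under the 1α,25(OH)2D3 label. The probe across exons 7 and 8 read 9.91, 8.69 and 10.27 on the 1α,25(OH)2D3-labelled arrays and 9.46, 9.22 and 9.35 on the vehicle-labelled ones. The probe in exon 2 read 10.32, 9.71 and 10.85 on the former and 10.42, 10.18 and 10.32 on the latter. On each probe 1α,25(OH)2D3 replicate 2 was lowest and replicate 3 highest, and the vehicle arrays lay between them. The differences were 0.28 (SE 0.38, limma adjusted p = 0.845) and -0.01 (SE 0.28, limma adjusted p = 0.992). Within the second slide they were 0.92 and 0.55.

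For the secreted marker WFDC2, the probe in exon 3 was the single probe above background on all arrays. It read 6.89, 6.81 and 7.44 on the 1α,25(OH)2D3-labelled arrays and 7.29, 7.02 and 7.01 on the vehicle-labelled ones. The groups overlapped, and the difference was -0.06 (SE 0.21, 95% interval -0.55 to 0.43, limma adjusted p = 0.945). It was 0.33 within the second slide. The probe in exon 2 read 4.34, 4.20 and 4.54 on the 1α,25(OH)2D3-labelled arrays and 4.96, 4.49 and 5.00 on the vehicle-labelled ones. It was above background on 2 of 3 arrays of each label, was not tested, and its groups overlapped. The remaining probes, OEV5_44724 and OEV5_72235, match other transcripts of the gene within intron 2 of the principal one, and neither was above background on any array.

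FOLR1 is on the plus strand of chromosome 11 (chr11:72189558-72196323), and its probe A_23_P53176 lies in the 3′ UTR in exon 4. It read 11.85, 11.19 and 12.07 on the 1α,25(OH)2D3-labelled arrays and 11.60, 11.99 and 11.68 on the vehicle-labelled ones. The lowest and the highest reading again fell under the 1α,25(OH)2D3 label. The difference was -0.05 (SE 0.25, 95% interval -0.64 to 0.54, limma adjusted p = 0.964), and 0.32 within the second slide.

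PAX8 is on the minus strand of chromosome 2 (chr2:113215997-113278921, 12 exons) and was read by 3 probes. One lies in the 3′ UTR in exon 12. The others lie in intron 10 (chr2:113220314-113220373) and intron 7 (chr2:113236862-113236921) of the principal transcript and match transcripts annotated as retained introns, and they are shown because they lie outside the exons of the principal transcript.
PAX8 OEV5_27067, intron 10: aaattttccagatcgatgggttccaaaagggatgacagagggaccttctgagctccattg
PAX8 OEV5_45483, intron 7: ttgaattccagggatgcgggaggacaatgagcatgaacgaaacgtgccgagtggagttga
The exon 12 probe A_33_P3234809 read 8.83, 7.49 and 8.99 on the 1α,25(OH)2D3-labelled arrays and 8.39, 8.62 and 8.39 on the vehicle-labelled ones. The intron 10 probe read 11.74, 10.98 and 11.74 on the former and 11.54, 11.45 and 10.62 on the latter, and the intron 7 probe read 11.23, 10.37 and 11.26 on the former and 11.02, 11.16 and 10.16 on the latter. On all 3 probes 1α,25(OH)2D3 replicate 2 was low, and on the intron probes vehicle replicate 3 was lower still, which the exon 12 probe did not show. The differences were -0.03, 0.28 and 0.17 for exon 12, intron 10 and intron 7, with standard errors of 0.38, 0.31 and 0.34 and limma adjusted p of 0.987, 0.811 and 0.897. Within the second slide they were 0.53, 0.54 and 0.48.

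The epithelial adhesion gene EPCAM, on the plus strand of chromosome 2 (chr2:47345158-47387601, 9 exons), had 1 probe, A_23_P91081, in the 3′ UTR in exon 9. It read 10.32, 9.63 and 10.33 on the 1α,25(OH)2D3-labelled arrays and 10.01, 9.16 and 9.87 on the vehicle-labelled ones. Replicates 1 and 3 with the 1α,25(OH)2D3 label were above all vehicle arrays and replicate 2 was below all but one of them. The difference was 0.42 (SE 0.29, 95% interval -0.26 to 1.09, limma adjusted p = 0.721), and 0.66 within the second slide. It ranged from 0.16 without vehicle replicate 2 to 0.65 without 1α,25(OH)2D3 replicate 2.

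CLDN3 (minus strand, chr7:73768997-73770270) and CLDN4 (plus strand, chr7:73799542-73832690) lie 29271 bases apart on chromosome 7. The CLDN3 probe A_33_P3285565, in the 3′ UTR of its single exon, read 7.04, 6.22 and 7.37 on the 1α,25(OH)2D3-labelled arrays and 7.12, 5.68 and 6.09 on the vehicle-labelled ones. The CLDN4 probe A_33_P3285545, in the 3′ UTR, read 8.65, 7.50 and 9.21 on the former and 8.02, 7.28 and 7.64 on the latter. Both genes were highest on 1α,25(OH)2D3 replicate 3 and lowest on vehicle replicate 2, and both sets of groups overlapped. For CLDN3 the difference was 0.58 (SE 0.42, limma adjusted p = 0.727) and for this CLDN4 probe 0.81 (SE 0.42, limma unadjusted p = 0.0925, adjusted p = 0.701). The CLDN4 difference was the highest of the 15, and it passed the unadjusted threshold without 1α,25(OH)2D3 replicate 2 (1.28, unadjusted p = 0.00348 in limma) and within the second slide (1.56, unadjusted p = 0.00813 and adjusted p = 0.807 in limma). It was 0.43 (limma unadjusted p = 0.319) without 1α,25(OH)2D3 replicate 3, and 1 of the 6 fits that leave out an array passed. The CLDN3 difference was 1.07 within that slide, 0.27 without vehicle replicate 2 and 0.99 (limma unadjusted p = 0.026) without vehicle replicate 1.

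The other probes of CLDN4 match longer transcripts that begin upstream of the coding exon, and their readings are given separately. OEV5_47326 read 7.17, 6.93 and 8.60 on the 1α,25(OH)2D3-labelled arrays and 7.95, 7.65 and 8.35 on the vehicle-labelled ones, a difference of -0.42 (SE 0.43, limma adjusted p = 0.795). A_33_P3378272 read 5.14, 3.68 and 5.80 on the former, where it was not above background on replicate 2, and 5.40, 4.63 and 5.03 on the latter, a difference of -0.15 (SE 0.50, limma adjusted p = 0.945). It entered the test through the vehicle arrays. OEV5_68441 (chr7:73827823-73827882) matches a single transcript with no defined coding sequence and read 14.24, 14.33 and 14.23 on the former and 14.43, 14.25 and 14.19 on the latter. Its range of 0.24 over the 6 arrays was the smallest of the 14 probes, whereas the 3′ UTR probe had the largest, 1.92. OEV5_68441 is shown because it was the one CLDN4 probe that hardly varied.
CLDN4 OEV5_68441: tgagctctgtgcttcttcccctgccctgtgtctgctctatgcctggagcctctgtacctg

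**Figure D2:**
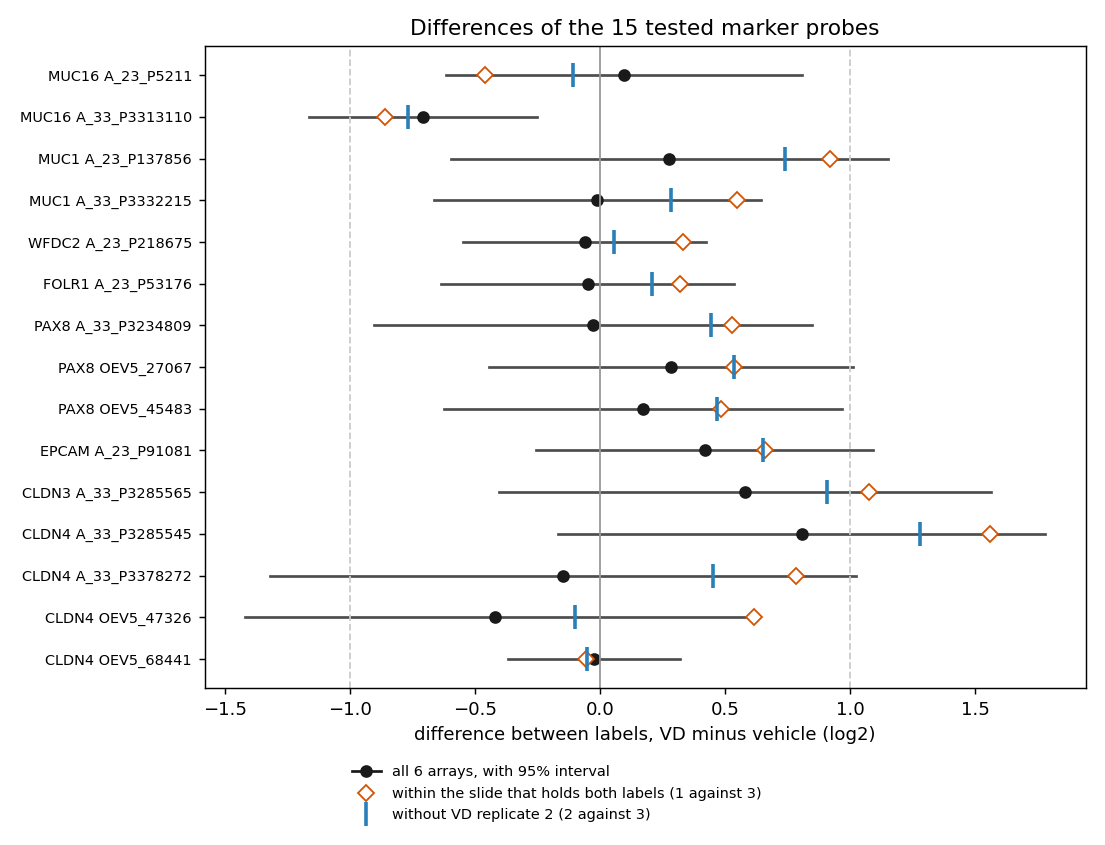
Difference between labels on the log2 scale (x axis, VD for 1α,25(OH)2D3, minus vehicle) for the 15 tested probes (rows). Black points and lines give limma estimates with 95% intervals over 6 arrays, open diamonds the difference within the slide that holds both labels, and blue ticks the difference without 1α,25(OH)2D3 replicate 2. Diamonds rest on a single 1α,25(OH)2D3 array, replicate 3, which read highest for 11 of the 14 probes above background on all arrays. For 12 of the 15 probes the diamond lies above 0, where the median over all probes tested within that slide was 0.035. For the MUC16 probe A_33_P3313110 all estimates lie below 0.

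The marker probes varied between arrays more than most probes did. Over the 14 probes above background on all arrays, the median of the range over the 6 arrays was 1.16 on the log2 scale, beside 0.65 over all 57103 probes above background on all arrays. The array with the highest reading was 1α,25(OH)2D3 replicate 3 for 11 of the 14 probes, beside 16.5% of all such probes. The array with the lowest reading was 1α,25(OH)2D3 replicate 2 for 6 of 14, beside 15.9% of all. Vehicle replicates 2 and 3 were lowest for 3 probes each and 1α,25(OH)2D3 replicate 3 for the 2 probes of MUC16. Probes of 1 gene share its transcripts, so these counts are not over independent items. Leaving out 1α,25(OH)2D3 replicate 2 raises an estimate wherever that array read below the mean of the others with its label. This held for 12 of the 15 tested marker probes, and the effect on each is in the plot of differences. The share over all tested probes was not counted. Their median difference was 0.0043 without that array, beside -0.0037 with all 6 arrays. Sign turned in at least 1 of the 6 fits that leave out an array for 10 of the 15 probes and was kept in all for 5.

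Set in the order of the CYP24A1 probe A_23_P28815, the readings of 3 of the 14 probes divided the arrays as that probe does, beside 6.09% of all probes above background on all arrays. All 3 were lower on the arrays where CYP24A1 was bright, as were 2.86% of all such probes. FOLR1 read 11.19, 11.60 and 11.68 on 1α,25(OH)2D3 replicate 2 and vehicle replicates 1 and 3, and from 11.85 to 12.07 on the other arrays. The PAX8 exon 12 probe read from 7.49 to 8.39 on the arrays with bright CYP24A1 and from 8.62 to 8.99 on the others. For the PAX8 intron 7 probe the readings were 10.16 to 11.02 and 11.16 to 11.26. The gap between these sets was small, 0.17, 0.23 and 0.14 on the log2 scale. No test was made, because these sets of arrays were set apart by a measured value and not by a label. The PAX8 intron 10 probe mixed the arrays, with 10.62 to 11.54 where CYP24A1 was bright and 11.45 to 11.74 elsewhere. So did the claudins, EPCAM, both mucins and WFDC2, and the MUC16 exon 3 probe followed the labels and not CYP24A1.

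**Figure D3:**
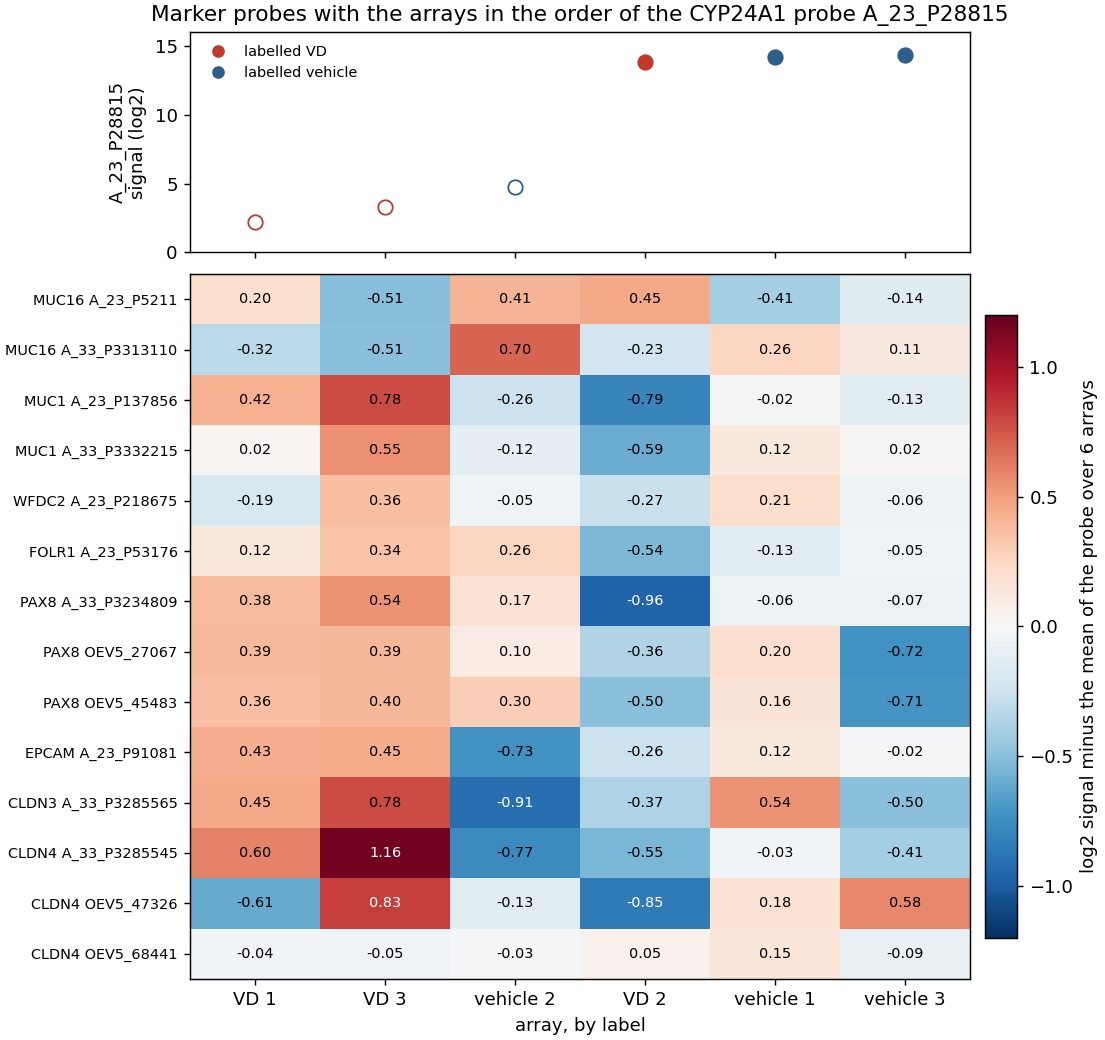
Top, log2 signal of the CYP24A1 probe A_23_P28815 on each array (open symbols not well above background), with the arrays ordered by it from left to right. Below, log2 signal of the 14 probes above background on all arrays minus the mean of each probe over the 6 arrays, in the same order of arrays, red above and blue below that mean. FOLR1 and the PAX8 probes A_33_P3234809 and OEV5_45483 are lower on all 3 arrays on the right than on the 3 on the left.

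For the markers that varied most, the genes with the most similar readings were sought among 12407 other genes with a protein-coding match to 1 gene and a probe above background on all arrays. Likeness was the root mean square difference of the log2 signals over the 6 arrays after each probe was centred on its mean. For the CLDN4 3′ UTR probe these were SUSD2 (0.14), SC5D (0.16) and MAL (0.22), for CLDN3 they were NRSN1 (0.11), CCNG1 (0.12) and PROC (0.15), and for the MUC1 probe across exons 7 and 8 they were FLCN (0.11), CCDC183 (0.15) and MRTFB (0.16). CLDN3 was in place 20 by likeness to CLDN4 (0.30, where the median gene was at 0.71) and CLDN4 in place 103 by likeness to CLDN3. SC5D, an enzyme of cholesterol synthesis, read 9.30, 8.0 and 9.43 on the 1α,25(OH)2D3-labelled arrays and 8.67, 7.80 and 8.34 on the vehicle-labelled ones.

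Genes related to the markers were counted in the same fit, in lists chosen with earlier results of these data known. Of 12 transcription factors of Müllerian, renal and gonadal development, 10 had a probe above background on all arrays, SOX17, MECOM and EMX2 among them. For EMX2 and PAX2 this held only for a probe outside the exons of the principal transcript. The EMX2 3′ UTR probe was above background on 4 arrays, and the other PAX2 probes on no array. Of the 18 tested probes of these transcription factors 1 passed the unadjusted threshold, beside 0.745% of all tested probes. This was the HOXA9 probe OEV5_43371, which read 5.39, 5.53 and 6.07 on the 1α,25(OH)2D3-labelled arrays and 5.80, 7.91 and 8.54 on the vehicle-labelled ones. That probe matches a single transcript with no defined coding sequence and lies outside the principal transcript. Its groups overlapped, its difference was -1.75 (SE 0.64, limma adjusted p = 0.701), and it passed that threshold in 1 of the 6 fits that leave out an array. The other tested HOXA9 probes, singled out after their values were seen, disagreed in sign. The difference was 0.49 for A_33_P3416231, in the 3′ UTR of the principal transcript (limma unadjusted p = 0.0158), and -0.63 for OEV5_43372 (limma unadjusted p = 0.0314).

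Of 16 other antigens studied in ovarian carcinoma, 8 had a probe above background on all arrays, including LCN2, MDK, SPP1 and L1CAM, and 3 (AFP, CEACAM5 and CHI3L1) were above background on no array. Of 12 tested probes 1 passed the unadjusted threshold, beside 0.745% of all tested probes. It was that of SLPI, a secreted protease inhibitor with the same kind of domain as WFDC2. It read 13.49, 14.44 and 14.00 on the 1α,25(OH)2D3-labelled arrays and 15.25, 14.21 and 15.47 on the vehicle-labelled ones. The groups overlapped, and the difference of -1.0 (SE 0.37, limma adjusted p = 0.701) passed that threshold in 2 of the 6 fits that leave out an array. The readings also divided the arrays as the CYP24A1 probe did, higher where that probe was bright. In either direction 6.09% of all probes above background on all arrays did so. SLPI stands as well in the list of paralogs of the markers, where 1 of 11 tested probes passed (0.745% of all tested probes did), 1 had a higher mean with the 1α,25(OH)2D3 label and 10 a lower one (49.4% of all tested probes were higher), and the median difference was -0.26 (-0.004 over all).

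Among 12 other mucins 1 of 19 tested probes passed the unadjusted threshold, beside 0.745% of all tested probes. It was that of MUC5AC, a secreted gel-forming mucin. It read 13.81, 11.58 and 14.07 on the 1α,25(OH)2D3-labelled arrays and 11.57, 11.87 and 10.61 on the vehicle-labelled ones. 1α,25(OH)2D3 replicate 2 was lower than vehicle replicate 2, so the groups overlapped. The difference was 1.80 (SE 0.65, limma adjusted p = 0.701). It was 2.72 within the second slide, ranged from 1.34 without 1α,25(OH)2D3 replicate 3 to 2.59 without replicate 2 of that label, and passed the threshold in 3 of the 6 fits that leave out an array. MUC5AC also divided the arrays as the CYP24A1 probe did, lower where that probe was bright, beside 6.09% of all probes above background on all arrays in either direction.

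No probe passed the unadjusted threshold among 23 tested probes of other claudins and tight junction proteins, beside 0.745% of all tested probes. The same held for 22 tested probes of the epithelial genes usually expressed with EPCAM. In these lists the unadjusted p in limma was under 0.05 for 1 and 2 probes, beside 6.77% of all tested probes. The labelled groups did not overlap for 2 probes in each list, beside 12.2% of all tested probes. These were OCLN and CLDN11 in the first list and CRB3 and LLGL2 in the second, named by the rule for lists in which no probe passed, and each was higher with the 1α,25(OH)2D3 label. The OCLN probe, of another strand protein of tight junctions, read 10.57, 10.35 and 10.74 on the 1α,25(OH)2D3-labelled arrays and 10.26, 9.77 and 10.14 on the vehicle-labelled ones, a difference of 0.50 (SE 0.19, limma adjusted p = 0.701). CRB3, a polarity protein of the apical membrane, had a difference of 0.54. LLGL2, a polarity protein of the basolateral side, had one of 0.47 on its probe OEV5_51240, which matches only transcripts annotated as retained introns. The 3 other tested LLGL2 probes lay between -0.19 and 0.02, and OEV5_48216, which overlaps OEV5_51240, had -0.08. CLDN11 had a difference of 0.25 on its probe OEV5_11861, which matches only transcripts with no defined coding sequence. Its 3′ UTR probe A_33_P3255404 was above background on no array. Of the 18 epithelial genes looked up, 13 had a probe above background on all arrays. OVOL1 and RAB25 were above background on no array, and the CDH1 probe was above background on 1.

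**Figure D4:**
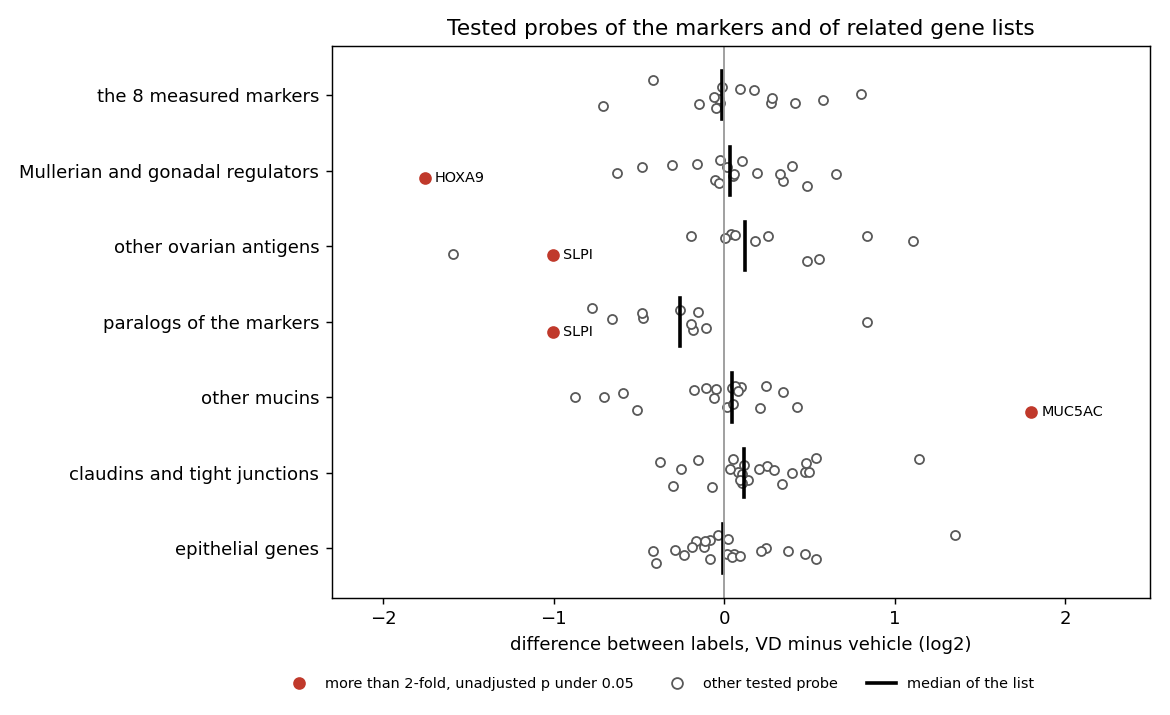
Difference between labels on the log2 scale (x axis, VD for 1α,25(OH)2D3, minus vehicle) for the tested probes of the 8 markers and of 6 related gene lists (rows, with points spread vertically at random). Red points are probes past the unadjusted threshold in limma and black bars the median of each list. The red points of HOXA9 and SLPI lie below 0 and that of MUC5AC above it, and 0 marker probes are red.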

How the data were processed

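Scanner intensity of 6 single-color arrays was extracted by the authors with Agilent Feature Extraction 10.7.1.1, per the labels. The values used are the log2 values deposited in the authors' series matrix, whose columns hold nearly the same sorted values on every array, as quantile normalization gives. A probe was called well above background on an array when at least 50% of its spots carried that flag. Control spots were left out, and 17 of 125601 probes without a value on every array were dropped. Of these probes 72.1% matched a GENCODE release 44 sense transcript exactly. The build named in the file headers is hg19, so all coordinates come from this match to hg38.

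The labelled groups were compared with limma 3.58.1 in R 4.3.3 (lmFit and eBayes, no covariate) on all probes that 1 or both labels had well above background on each of their 3 arrays, and p-values were adjusted over all of them by the Benjamini-Hochberg method. The markers, the related lists and the tests were chosen with earlier results of these data known. Named are all markers with every probe, the CYP24A1 probe, genes of each related list past the unadjusted threshold or, where there were none, with labelled groups that do not overlap (at most 5 a list), list genes where detection is the question (some are not reported here), and the 3 genes most like each of the 3 markers that varied most. The alternatives were scanner signals scaled to the 75th percentile, normexp with an offset of 50 and quantile normalization, other filters, blocks for the replicate number or slide, the methods' t-test (unpaired, which the study names outside its array comparison), 1 probe per gene and each array left out in turn.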

Additional observations from a re-analysis of the deposited data

How the results depend on the processing

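In limma with the Benjamini-Hochberg adjustment 0 probes passed under every alternative except without vehicle replicate 1, where 4 did, so leaving out arrays gave 0 to 4. The unadjusted count of 472 (308 higher, 164 lower with the 1α,25(OH)2D3 label) was 32 (14 higher, 18 lower) with normexp and quantile normalization, 1612 without a filter, 157 with the filter on all 6 arrays, 808 with the slide as a fixed block, 1506 within the second slide and 139 with the methods' t-test, and 329 to 1526 when an array was left out. The marker count of 0 became 1, CLDN4, with the slide as a fixed block and within the second slide, and was 0 to 1 when an array was left out. The count of 3 over the related lists became 6 within the second slide and 0 with the methods' t-test, and was 0 to 6 when an array was left out. Fewer arrays or probes enter several of these fits, and other causes were not tested.

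The marker differences that turned sign were all on probes whose unadjusted limma p was not under 0.05 with all 6 arrays. Among them, CLDN4 OEV5_47326 had a limma unadjusted p = 0.00932 without 1α,25(OH)2D3 replicate 3 and MUC1 A_23_P137856 a limma unadjusted p = 0.00886 without replicate 2 of that label. With normexp MUC1 A_33_P3332215 was 0.084, PAX8 A_33_P3234809 0.062 and WFDC2 A_23_P218675 0.017. With the slide as a fixed block and within the second slide the values were equal, 0.78 for CLDN4 A_33_P3378272, 0.62 for CLDN4 OEV5_47326, 0.32 for FOLR1, 0.55 for MUC1 A_33_P3332215, -0.46 for MUC16 A_23_P5211, 0.53 for PAX8 A_33_P3234809 and 0.33 for WFDC2 A_23_P218675. With the slide as a random block they were 0.015 for CLDN4 A_33_P3378272, 0.015 for FOLR1, 0.086 for MUC1 A_33_P3332215, -0.0023 for MUC16 A_23_P5211, 0.069 for PAX8 A_33_P3234809 and 0.0074 for WFDC2 A_23_P218675. When each array was left out, the range was -0.61 to 0.45 for CLDN4 A_33_P3378272, -0.074 to 0.045 for CLDN4 OEV5_68441, -0.23 to 0.21 for FOLR1, -0.045 to 0.74 for MUC1 A_23_P137856, -0.29 to 0.28 for MUC1 A_33_P3332215, -0.11 to 0.37 for MUC16 A_23_P5211, -0.31 to 0.44 for PAX8 A_33_P3234809, -0.0096 to 0.53 for PAX8 OEV5_27067, -0.14 to 0.47 for PAX8 OEV5_45483 and -0.26 to 0.057 for WFDC2 A_23_P218675.

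The labels number replicates in both groups, but the deviations of arrays with the same number from their group means correlated at 0.13, 0.11 and -0.02, and not every array correlated best with its own number, so the arrays were not taken as pairs. With the replicate block the unadjusted count was 582, and no marker passed or turned sign. The MUC16 exon 3 probe kept non-overlapping groups in the scanner signals and after normexp, and 14 marker probes were above background on all arrays also when every spot of a probe had to carry the flag. Signals near background limit the WFDC2 probe in exon 2 and the CLDN4 probe A_33_P3378272.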
